A study of Mus musculus with 18 samples.

Results

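The receptor tyrosine kinase *Kit* and its ligand *Kitl* were taken by gene symbol from the deposited table of normalized expression, and their raw counts by the same gene identifier. They are 2 of 53715 genes in the count table and 2 of 28252 in the table of normalized values, and both were listed in all 18 libraries. *Kit* (ENSMUSG00000005672.12) lies on the plus strand of chromosome 5 at 75574916 to 75656722, and *Kitl* (ENSMUSG00000019966.18) on the plus strand of chromosome 10 at 100015630 to 100100416 (GRCm38). Neither gene overlapped another gene of the annotation.

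The study compared RNA of mouse oocytes that grew *in vivo* or *in vitro*, at the primordial and primary follicle stages and as mature oocytes at metaphase of the second meiotic division (MII), with 3 libraries in each of 6 groups. All mice were C57Bl/6j x CBA/J hybrids without genetic modification. Oocytes of primordial follicles (flattened pregranulosa cells) and of primary follicles (cuboidal granulosa cells in 1 layer) were cut from fixed, stained paraffin sections by laser capture microdissection (LCM), from non-cultured ovaries of mice aged 14 days in the *in vivo* group and from ovaries taken at 7 days of age and cultured for 7 days in the *in vitro* group. The culture medium contained serum, insulin, transferrin, selenium and recombinant follicle stimulating hormone. MII oocytes of the *in vivo* group came from adult mice given gonadotropins to ovulate, and those of the *in vitro* group from follicles of the cultured ovaries that were grown in alginate beads for 12 more days and then given human chorionic gonadotropin. Each MII library held 10 oocytes. RNA of several LCM caps was pooled within a stage, and the labels do not tie a library to single animals, so the p-values measure the spread between these libraries, part of which may be technical. LCM libraries were amplified and enriched for exons by capture probes, whereas MII libraries were made by Smart-seq II, so stage and preparation cannot be told apart between LCM and MII oocytes, and no test compared them.

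In the ovary, the oocyte carries the KIT receptor on its surface, and the granulosa cells around it make its ligand, also called stem cell factor. Binding of the ligand pairs receptors, which phosphorylate each other and recruit adaptors and phosphatidylinositol 3-kinase (PI3K). AKT then moves FOXO3 out of the oocyte nucleus, a step known for waking dormant primordial follicles, while a Ras to ERK branch and STAT factors carry other signals.

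Both genes make messenger RNA forms that a count per gene cannot tell apart, and the stretches that separate them are printed here because no value below distinguishes them. GENCODE release M21 listed 8 transcripts of *Kit*, of which 2 code for protein, and 6 of *Kitl*, of which 4 do. The long form of *Kit* carries 12 bases (4 codons) at the end of exon 9, at chr5:75639147-75639158, that the short form lacks. Capitals mark these bases.
Kit long form (Kit-201), end of exon 9: ttaactttgcatttaaagGTAACAACAAAG
Kit short form (Kit-204), end of exon 9: ttaactttgcatttaaag

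Exon 6 of *Kitl*, 84 bases (28 codons) at chr10:100080857-100080940, encodes the main cleavage site by which the ligand is released from the membrane. The form that skips it stays mostly on the cell surface. Capitals mark exon 6, and the lower-case bases belong to exons 5 and 7.
Kitl with exon 6 (Kitl-202): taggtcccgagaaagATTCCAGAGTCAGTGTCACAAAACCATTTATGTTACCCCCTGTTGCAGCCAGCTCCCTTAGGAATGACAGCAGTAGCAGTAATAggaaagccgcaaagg
Kitl without exon 6 (Kitl-201): taggtcccgagaaagggaaagccgcaaagg

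The LCM libraries held 15149564 to 29205503 counted reads and the MII libraries 7334817 to 9978830, on 6048 to 13755 and 14512 to 18239 genes. Of 12 oocyte markers fixed for the check of the label, 9 to 12 exceeded 3 reads in each LCM library and 12 in each MII library. *Bmp15*, an oocyte growth factor, had no read in 4 LCM libraries and *Oosp1*, an oocyte-secreted protein, in 6. How well the capture probes of the LCM libraries cover these and the other listed genes is not known. The oocyte markers summed to 326 to 2089 TPM in the LCM and 10605 to 21285 TPM in the MII libraries. Theca and stroma markers summed to 455 to 30494 TPM in the LCM libraries (median 1158, against 616 for the oocyte markers) and to 2.23 to 8.51 TPM in the MII libraries. The highest sum, in the second library of primary follicles *in vivo*, held 18521 TPM of *Acta2* and 9734 TPM of *Col1a1*. *Cyp17a1*, *Star* and *Hsd3b1*, the steroid genes of this list, had at most 0.402, 0.389 and 14.1 TPM in any LCM library. Markers of blood, endothelium and macrophages summed to 0 to 7503 TPM in the LCM libraries (median 29.2). The highest sum was all *Hba-a1*, a hemoglobin gene, in the first library of primary follicles *in vivo*. In the MII libraries they summed to 39.4 to 103.5 TPM, led by *Pecam1*. The leukocyte and macrophage markers *Ptprc* and *Adgre1* had no read in any library. Surface epithelium markers reached 4285 TPM in the LCM (median 60.6) and 25.8 TPM in the MII libraries. The part of other cells in the *Kit* and *Kitl* values was not tested. Granulosa cell markers were also present in the LCM libraries, where 6 to 14 of 16 exceeded 3 reads and their summed level was 500.4 to 2871 TPM, the deposited level scaled by the authors for gene length and library size. In the MII libraries 3 to 8 of 16 did, at 176 to 441 TPM. That sum was led by *Serpine2*, at 135 to 381 TPM, and *Cyp19a1*, at 17.5 to 64.7 TPM. *Gatm*, *Foxl2* and *Amhr2* had no read in any MII library. In such bulk RNA, fewer cells of a type and less RNA per cell cannot be told apart.

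*Kit* was read in all 18 libraries and *Kitl* in all 18 as well, but their levels differed widely among LCM libraries, also within most groups. *Kit* ranged from 1.02 to 116 TPM over the 12 LCM libraries, a 114-fold range, and from 9.51 to 56.9 TPM over the 6 MII libraries, a 5.99-fold range. *Kitl* ranged from 0.0243 TPM, a single read, to 78.3 TPM in LCM oocytes, and from 1.53 to 7.95 TPM in MII oocytes.

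In oocytes from primordial follicles of the *in vivo* group, *Kit* had 34.6, 87.0 and 32.4 TPM in replicates 1, 2 and 3, from 2121, 5471 and 2128 reads. These are the closest values of *Kit* in any LCM group, within 2.69-fold of each other. In the *in vitro* group at the same stage, *Kit* had 3.69, 3.99 and 94.4 TPM, from 155, 303 and 5414 reads. The first and the second library lay below all *in vivo* libraries and the third above them, so the groups overlapped.

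In oocytes from primary follicles, *Kit* had 1.02, 20.9 and 62.6 TPM in the *in vivo* group, from 63, 1361 and 2856 reads. The *in vitro* group held 116, 1.31 and 16.6 TPM, from 7123, 88 and 1191 reads. Each group had a library with few reads and a library with many, and their ranges overlapped.

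In MII oocytes, *Kit* had 56.9, 37.2 and 31.6 TPM in the *in vivo* group, from 1803, 989 and 954 reads, and 9.51, 44.6 and 33.9 TPM in the *in vitro* group, from 358, 1399 and 986 reads. The first *in vitro* library was the lowest of the 6, and the other two lay within the *in vivo* range. Among the genes detected in a library, *Kit* ranked above 63.0% to 86.5% of them in MII oocytes and above 42.3% to 88.3% in LCM oocytes.

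*Kitl* had 0.0738, 23.2 and 33.7 TPM in primordial follicle oocytes of the *in vivo* group, from 3, 966 and 1469 reads. The first library was at the floor of 3 reads, below which a count is not told from none, and floors of this kind cover counting error only. The *in vitro* group had 6.49, 52.4 and 0.342 TPM, from 181, 2637 and 13 reads. High and near-absent libraries thus occurred in both groups.

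In oocytes from primary follicles, *Kitl* had 0.0243, 6.67 and 78.3 TPM in the *in vivo* group, from 1, 288 and 2368 reads, and 9.79, 73.1 and 48.3 TPM in the *in vitro* group, from 400, 3266 and 2295 reads. The *in vitro* group had no library with few *Kitl* reads, its lowest being 400, while each of the other LCM groups had one with 13 or fewer. It still overlapped the *in vivo* group, with replicate 3 there the highest of all 18.

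MII oocytes had little *Kitl*, with 7.95, 1.53 and 2.35 TPM in the *in vivo* group from 167, 27 and 47 reads, and 3.24, 2.50 and 3.48 TPM in the *in vitro* group from 81, 52 and 67 reads. The *in vitro* libraries all lay inside the *in vivo* range.

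**Figure D1:**
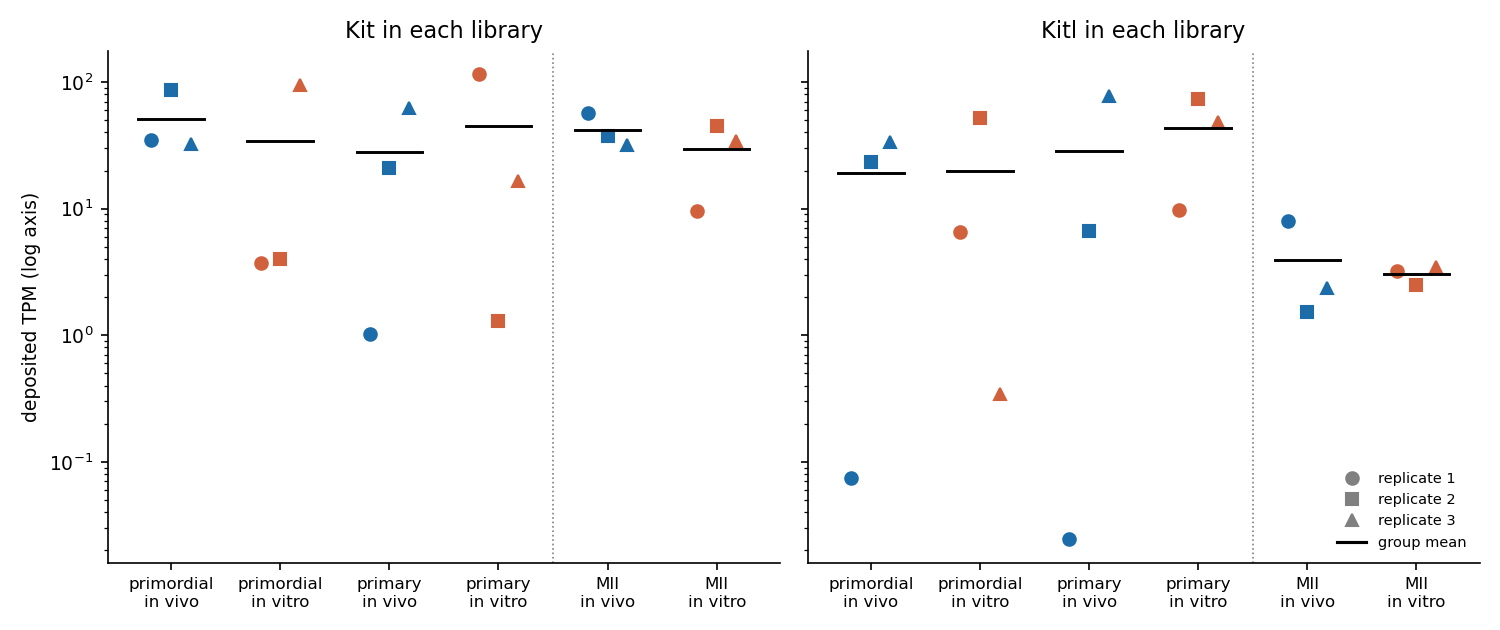
Deposited TPM of *Kit* (left) and *Kitl* (right) on a log axis in the 18 libraries, by group, with *in vivo* in blue, *in vitro* in orange, a marker shape for each replicate number and a black bar for the group mean. The dotted line separates LCM from MII libraries. *Kit* spans 1.02 to 116 TPM in LCM and 9.51 to 56.9 TPM in MII libraries, and *Kitl* spans 0.0243 to 78.3 TPM and 1.53 to 7.95 TPM.

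Ordered by mean level, *Kit* was highest in primordial follicle oocytes *in vivo*, at 51.3 ± 30.9 TPM (SD, n = 3). It was followed by primary follicle oocytes *in vitro* at 44.5 ± 62.1 TPM, MII oocytes *in vivo* at 41.9 ± 13.3 TPM and primordial follicle oocytes *in vitro* at 34.0 ± 52.3 TPM. MII oocytes *in vitro*, at 29.3 ± 17.98 TPM, and primary follicle oocytes *in vivo*, at 28.2 ± 31.4 TPM, were lowest. *Kitl* was highest in primary follicle oocytes, at 43.7 ± 31.9 TPM *in vitro* and 28.3 ± 43.4 TPM *in vivo*. Primordial follicle oocytes had 19.7 ± 28.4 TPM *in vitro* and 19.0 ± 17.2 TPM *in vivo*, and MII oocytes 3.94 ± 3.49 TPM *in vivo* and 3.07 ± 0.511 TPM *in vitro*. Every pair of neighbours in both orders overlapped, so neither order separates adjacent groups beyond their spread. Both orders mix LCM and MII preparations, so in the place of the MII groups stage and preparation cannot be told apart.

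Set against each other per length, receptor and ligand stood in a fixed order in MII oocytes and in no fixed order in LCM oocytes. How evenly the capture probes of the LCM libraries take up both genes is not known, and no test compared the ratio between preparations. *Kit* exceeded *Kitl* in 6 of 6 MII libraries, by 2.93-fold to 24.3-fold in TPM, and in 6 of 12 LCM libraries. The log2 ratio of *Kitl* to *Kit*, with 1 TPM added to each, was -2.69, -3.92 and -3.28 in MII oocytes *in vivo* and -1.31, -3.70 and -2.96 *in vitro*. All 6 ratios were negative, and the groups overlapped.

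In primordial follicle oocytes the log2 ratio was -5.05, -1.87 and 0.06 *in vivo* and 0.68, 3.42 and -6.15 *in vitro*. In primary follicle oocytes it was -0.98, -1.51 and 0.32 *in vivo* and -3.43, 5.01 and 1.48 *in vitro*. Each of these 4 groups held libraries with more ligand and libraries with more receptor. The added 1 TPM sets the size of the ratio where *Kitl* had 1 or 3 reads. With 0.1 TPM added, the first *in vivo* library moved to -7.64 at the primordial and to -3.17 at the primary stage, and on reads per kb to -8.87 and -5.39. The lengths behind the TPM enter this ratio. The deposited values matched the merged exons of each gene, 8.911 kb for *Kit* and 5.911 kb for *Kitl*, and those of *Kit* include retained introns. With reads divided by the longest coding transcript instead, an alternative chosen after seeing the data, the third *in vivo* libraries of the primordial and the primary stage turned to -0.64 and -0.38, and no other library changed its sign.

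**Figure D2:**
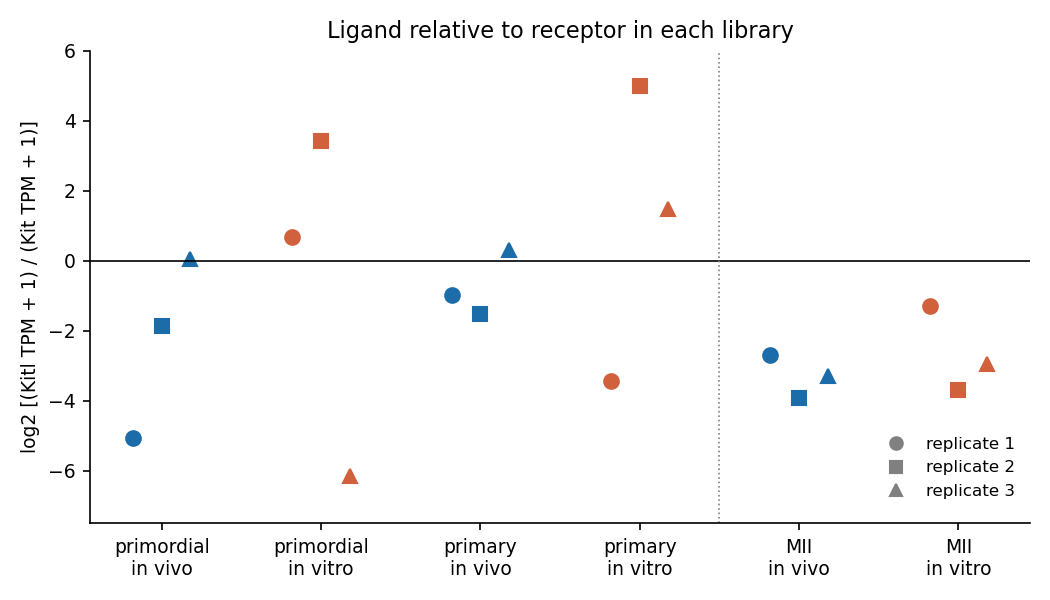
Log2 ratio of *Kitl* to *Kit* TPM, with 1 TPM added to each, in the 18 libraries by group, with *in vivo* in blue, *in vitro* in orange and a marker shape for each replicate number. Points above 0 have more ligand than receptor, which holds for 6 of 12 LCM libraries and for 0 of 6 MII libraries.

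Growth *in vitro* was then compared with growth *in vivo* by edgeR's quasi-likelihood test over all genes with at least 10 reads, 15317 in the LCM and 17144 in the MII libraries. Genes with a p under 0.05 after Benjamini-Hochberg adjustment and at least a 2-fold change were called. Shares called by DESeq2 are over the genes with any read, 19181 in the LCM and 21583 in the MII libraries. Log2 fold changes are positive where the level was higher *in vitro*, and they refer to counts after TMM scaling.

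At the primordial stage the log2 fold change of *Kit* was -0.51 (SE 2.45, 95% interval -5.31 to 4.29, edgeR adjusted p = 1). That of *Kitl* was -0.02 (SE 2.77, interval -5.46 to 5.42, edgeR adjusted p = 1). Neither gene was called, and 0.0326% of all genes tested were, or 4.04% by DESeq2. Without the third *in vitro* library, which held 5414 of the *Kit* reads, the estimate for *Kit* was -3.59, and it was not called there either.

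At the primary stage *Kit* had a log2 fold change of 0.35 (SE 2.44, interval -4.44 to 5.14) and *Kitl* of 0.68 (SE 2.79, interval -4.78 to 6.15). Neither was called, against 0% of all genes by edgeR, where 1479 genes had an unadjusted p under 0.05, and against 1.18% (227 genes) by DESeq2. Averaged over both stages, the log2 fold change was -0.08 for *Kit* (interval -3.46 to 3.31) and 0.33 for *Kitl* (interval -3.52 to 4.18). Again neither was called, with 0% of all genes called by edgeR, 1772 at an unadjusted p under 0.05 and 2.90% (557) called by DESeq2.

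The difference between these effects, primary minus primordial, was 0.86 for *Kit* (interval -5.92 to 7.64) and 0.70 for *Kitl* (interval -7.00 to 8.40), neither called, against 0.104% of all genes, or 2.87% by DESeq2. The culture effect on neither gene was thus shown to differ between stages, and intervals of this width admit large changes in both directions.

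MII oocytes gave a much tighter comparison. *Kit* had a log2 fold change of -0.60 (SE 0.443, 95% interval -1.56 to 0.35, edgeR adjusted p = 0.653), and *Kitl* of -0.36 (SE 0.721, interval -1.91 to 1.19, edgeR adjusted p = 0.914). Neither was called, against 0.350% of all genes, or 1.63% by DESeq2. The interval for *Kit* leaves out a 2-fold rise *in vitro* but not a 2-fold fall. Without the first *in vitro* library, the lowest, the estimate for *Kit* was -0.25, and without the first *in vivo* library, the highest, it was -0.19.

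Between stages, primary against primordial, *Kit* had a log2 fold change of -0.92 *in vivo* (interval -5.75 to 3.90) and of -0.06 *in vitro* (interval -4.85 to 4.73). *Kitl* had 0.32 *in vivo* (interval -5.13 to 5.76) and 1.02 *in vitro* (interval -4.48 to 6.51). Neither gene was called in either comparison, where edgeR called 0.0522% of all genes *in vivo* and 0% *in vitro* (1673 at an unadjusted p under 0.05), and DESeq2 called 2.77% and 2.15%. The averages over both growth conditions, -0.49 for *Kit* and 0.67 for *Kitl*, were not called either, with 0% of all genes called by edgeR, 1894 at an unadjusted p under 0.05 and 3.26% (625) by DESeq2. The signs of several of these LCM estimates changed with the scaling, *Kit* at the primary stage with DESeq2's size factors, and *Kitl* at the primordial stage and *Kit* averaged over stages and between stages *in vitro* with library size alone. Over the 8 comparisons, both genes had an unadjusted p above 0.05 by edgeR, DESeq2 and limma.

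**Figure D3:**
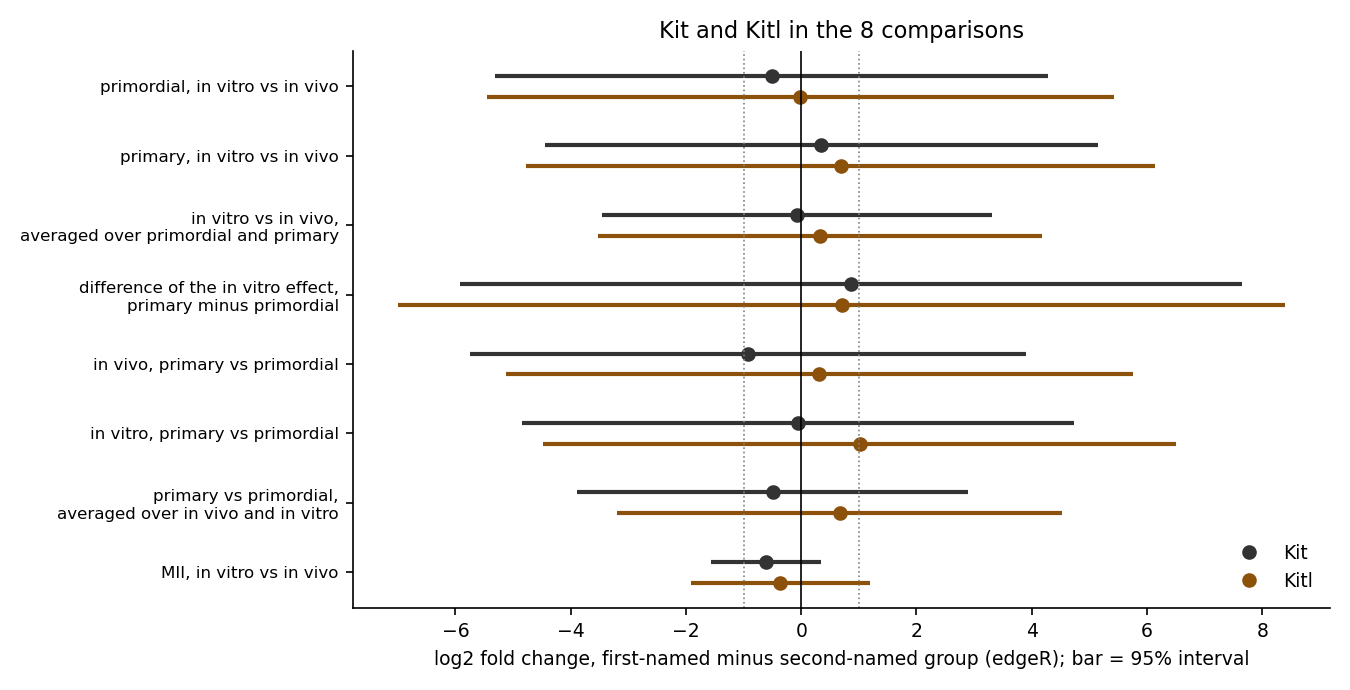
Log2 fold changes (points) and 95% intervals (bars) of *Kit* (black) and *Kitl* (brown) from edgeR in the 8 comparisons, with dotted lines at a 2-fold change. All 16 intervals include 0, and the MII interval of *Kit*, -1.56 to 0.35, is the shortest.

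The spread of both genes between libraries was also set against that of all genes tested. The biological coefficient of variation, the relative spread between libraries beyond counting error, was 1.81 for *Kit* and 1.98 for *Kitl* in the LCM libraries, where the median over genes was 2.23. In the MII libraries it was 0.402 for *Kit* and 0.631 for *Kitl*, with a median of 0.669. Both genes thus lay below the median in either preparation, *Kitl* in the MII libraries only slightly, with 47.5% of genes lower. Genes of unlike level entered these medians, and these gene-wise values did not set the intervals above.

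The other genes of the pathway were taken from lists of 54 genes that act with or after the receptor, all of which were tested in the LCM and 48 in the MII libraries. None was called by edgeR in any of the 8 comparisons, and 1 to 5 of them had an unadjusted p under 0.05 in each, where 9.66% to 12.4% of all genes did. DESeq2 called *Cbl*, a ubiquitin ligase that marks KIT for degradation, and *Sos2*, a Ras activator, at the primordial stage and in the difference between stages. It called *Cbl* and the adaptor *Gab1* between stages *in vitro*, and none of the 54 in the other comparisons. These 2 of 54 genes stand beside 4.04%, 2.87% and 2.15% of all genes that DESeq2 called in those comparisons. *Cbl* held 2825, 262 and 15508 reads in the *in vivo* and 14, 101 and 8 reads in the *in vitro* group at the primordial stage (log2 fold change -7.51, SE 2.92, edgeR adjusted p = 0.359). Another annotated gene overlaps *Cbl*, *Sos2*, *Gab1*, *Akt1*, *Pik3r1*, *Tsc2*, *Rps6ka1*, *Pdgfra*, *Csf1r*, *Flt3*, *Il34* and *Foxl2*, so their counts are uncertain.

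The median log2 fold change of the 54 genes was 0.02 at the primordial stage, where that of all genes was 0, and 0.66 at the primary stage, where that of all genes was 0.44. It was 0.02 in MII oocytes, beside 0.04 for all genes. With genes unread in a whole group set to the bound that 3 reads per library give, these medians were -0.02, 0.59 and 0.02. The PI3K arm included *Foxo3*, which holds primordial follicles dormant, at 428 ± 283 TPM over the 12 LCM and 111 ± 45.7 TPM over the 6 MII libraries. The PI3K subunit *Pik3r1* had 40.7 ± 38.1 and 24.2 ± 7.96 TPM in LCM and MII libraries, and the kinase *Akt1* had 220 ± 169 and 100.1 ± 36.8 TPM.

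In MII oocytes the log2 fold changes of the Ras to ERK arm ran from -0.52 for *Rps6ka1* to 0.90 for *Nras*, with 0 of 10 called. *Tsc2*, a brake on mTOR in the PI3K arm, had 8.60, 15.02 and 14.3 TPM *in vivo* and 5.90, 5.40 and 3.73 TPM *in vitro* (log2 fold change -1.21, SE 0.423, edgeR adjusted p = 0.387). *Akt1* of the same arm had 84.9, 150 and 144 TPM *in vivo* and 73.9, 74.1 and 73.5 TPM *in vitro*. Of the 16 genes of that arm tested, 6 were higher and 10 lower *in vitro*, and none was called. In edgeR's test 3 of the 16 had an unadjusted p under 0.05, where 10.2% of all genes did.

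**Figure D4:**
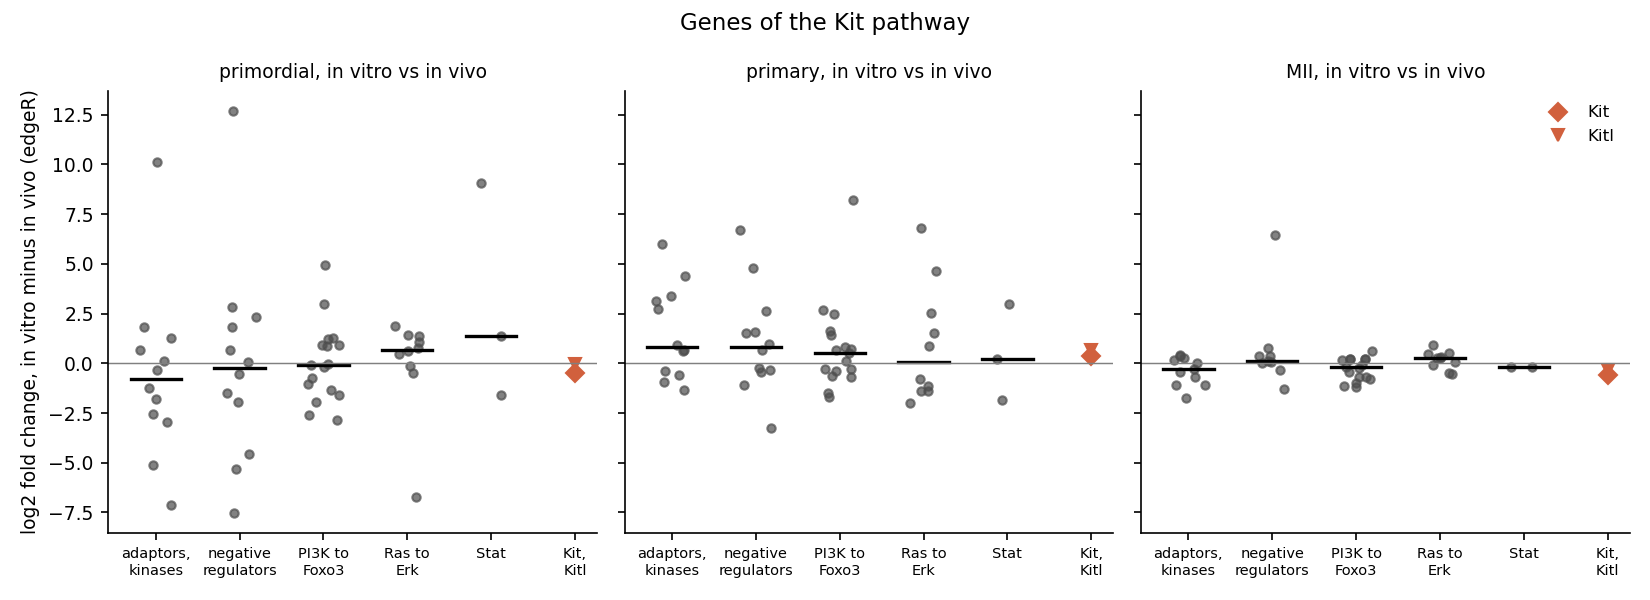
Log2 fold changes, *in vitro* minus *in vivo*, of the genes in the 5 arms of the pathway at the primordial and primary stage and in MII oocytes, with 1 point per gene and a black bar for each arm's median. *Kit* (diamond) and *Kitl* (triangle) stand at the right of each panel, within the range of the arms, and most points lie closer to 0 in MII oocytes.

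*Kit* belongs to the type III receptor tyrosine kinases, which share an extracellular part of immunoglobulin-like domains and a split kinase domain. Of its 4 relatives, *Pdgfra* and *Pdgfrb*, receptors of platelet-derived growth factors, exceeded 3 reads in 10 of 12 LCM libraries each, at 0 to 45.7 and 0 to 124 TPM. *Pdgfrb* had no read in any MII library, a count that allows up to 3 reads. *Csf1r*, the receptor of colony stimulating factor 1, showed the reverse, with 1 of 12 LCM libraries above 3 reads and 9.06 to 18.3 TPM in 6 of 6 MII libraries. *Flt3* had no read in the LCM libraries, and how well their capture probes cover the receptors and ligands of this family is not known. *Kit* was thus the member of its family with reads above the floor in all 18 libraries.

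Among the ligands of this family, *Csf1* exceeded *Kitl* in every MII library, with 29.9 ± 9.44 TPM *in vivo* and 47.6 ± 0.767 TPM *in vitro*, and had 0 to 25 reads in LCM oocytes. *Il34*, the other ligand of CSF1R, had 15, 113 and 48 reads in primordial follicle oocytes *in vivo* and no read in the 3 *in vitro* libraries. DESeq2 called it there and averaged over both stages, and called *Pdgfra* in MII oocytes. No receptor or ligand of the family was called by edgeR in any comparison, and at most 1 of each had an unadjusted p under 0.05, where 9.66% to 12.4% of all genes did. DESeq2 called 4.04%, 2.90% and 1.63% of all genes in the comparisons where it called *Il34* or *Pdgfra*.

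The oocyte transcription factors *Sohlh1*, *Sohlh2*, *Lhx8*, *Nobox*, *Figla* and *Tbpl2*, known to act in follicle formation, were set beside *Kit*. Their summed level in the LCM libraries, 3.86 to 817 TPM, was led by *Lhx8* in 10 of 12 libraries, the first of primary follicles *in vivo* and *in vitro* being the exceptions. It was set against the *Kit* level (Pearson's r = 0.67, Spearman's rho = 0.80, n = 12 libraries of 4 groups, and r = 0.63 without the 2 libraries farthest from the median). The library with the lowest *Kit*, the first of primary follicles *in vivo* at 1.02 TPM, also had the lowest sum, 3.86 TPM, and the library with the highest, at 116 TPM, had the second highest sum, 461 TPM. Of these 461 TPM, 370 were *Tbpl2*, and without it the sum there was 91.7 TPM. Without *Tbpl2* in all libraries the correlation with *Kit* was r = 0.59 (rho = 0.74), and without *Lhx8* it was r = 0.61 (rho = 0.66), both chosen after seeing the data. The summed oocyte markers and *Kit* had r = 0.02 and rho = 0.14 (r = 0.13 without the 2 farthest libraries). The libraries share depth and complexity as well, and *Kit* against the number of genes detected had r = 0.47, whose part in these correlations was not tested. None of the 6 factors was called in any comparison, where edgeR called 0% to 0.350% and DESeq2 1.18% to 4.04% of all genes. At most 1 had an unadjusted p under 0.05 by edgeR, where 9.66% to 12.4% of all genes did.

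Granulosa cells are the known source of *Kitl*, so it was set beside their markers across the LCM libraries. Its level and their summed level had r = -0.46 and rho = -0.47 (n = 12, and r = -0.56 without the 2 farthest libraries). The library with 1 *Kitl* read, the first of primary follicles *in vivo*, had the highest granulosa sum, 2871 TPM, and the library with the most *Kitl* TPM, the third of that group, had 579 TPM. In the former, 6 of 16 markers exceeded 3 reads and *Gatm* alone gave 2054 of the 2871 TPM, and without it the sum was 816 TPM there and 422 TPM in the third library. Without *Gatm* in all libraries the correlation with *Kitl* was r = -0.19 (rho = -0.07), and without *Inha* it was r = -0.64 (rho = -0.51), both chosen after seeing the data. *Kitl* and the summed oocyte markers had r = 0.46, or 0.16 without the 2 farthest libraries. By group the granulosa sum was 500.4 to 1177 TPM in primordial follicle oocytes *in vivo*, 612 to 2521 TPM *in vitro*, and 579 to 2871 TPM and 1421 to 2848 TPM in those of primary follicles, and its part in the *Kitl* values was not tested. *Gatm*, *Wt1*, *Foxl2* or *Inha* was the highest of the markers in each LCM library, while *Fshr*, the receptor of follicle stimulating hormone, had no read in 12 of 12 LCM libraries.

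Most markers of mast cells, another cell type known for KIT, had no read. Of 8 mast cell markers, 7 had no read in any LCM library, and the eighth, *Hdc*, had 1160, 660 and 112 reads in 3 of them. Normalized values were listed for 3 of the 8, and whether the capture probes of the LCM libraries cover these markers is not known. In the 9 LCM libraries without a read of any of them, *Kit* spanned 1.02 to 116 TPM, and the part of mast cells in these values was not tested.

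**Figure D5:**
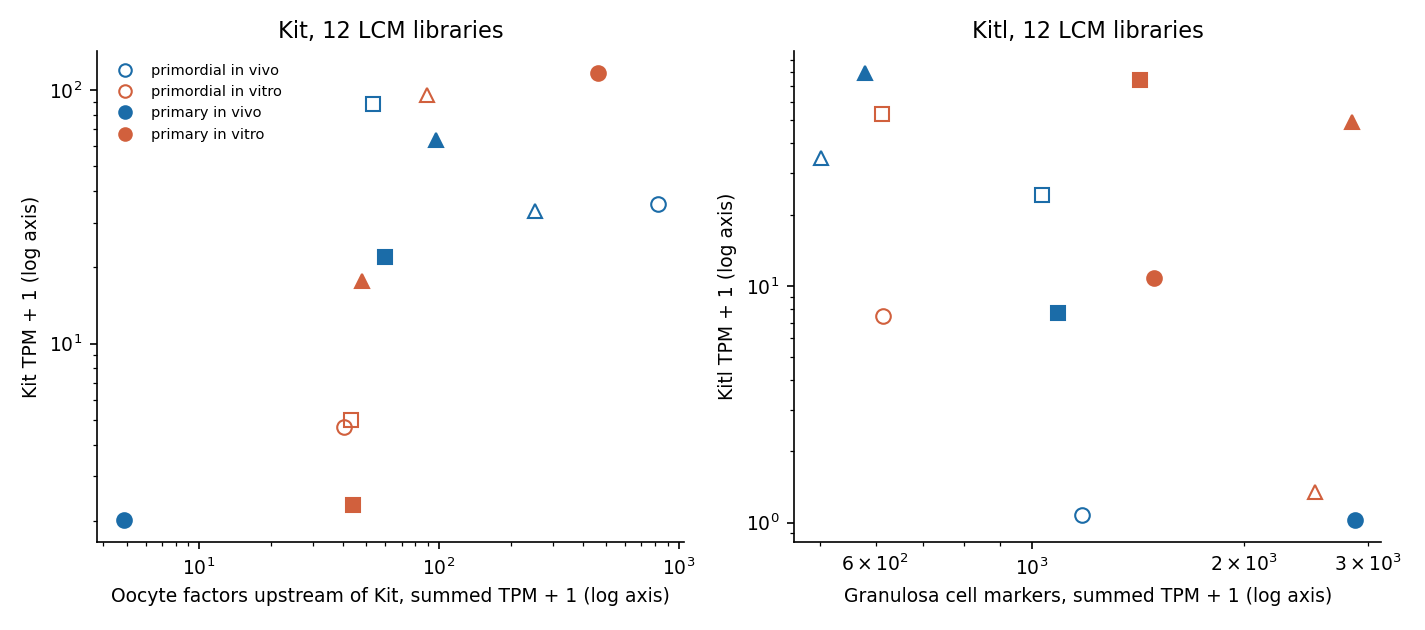
Left, *Kit* TPM against the summed TPM of 6 oocyte transcription factors, and right, *Kitl* TPM against the summed TPM of 16 granulosa cell markers, each plus 1 on log axes, in the 12 LCM libraries. Colour and fill give the group and marker shape the replicate number. *Kit* is lowest where the factors sum to 3.86 TPM, and *Kitl* has 1 read where the granulosa markers sum to 2871 TPM, of which *Gatm* gives 2054 TPM.

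Receptor and ligand were also compared with each other across libraries. Over the 12 LCM libraries *Kit* and *Kitl* had r = -0.04 and rho = -0.01, and over the 6 MII libraries r = 0.23. Among 7524 genes compared over the LCM libraries, those most like *Kit* were *Zfand5* (r = 0.90), *Slc5a3* (r = 0.89), *Pias4* (r = 0.88), *Cdc34* (r = 0.87) and *Mbd1* (r = 0.87), where the median gene had r = 0.16. Those most like *Kitl* were *Zfp592* (r = 0.93), *E2f5* (r = 0.92), *Ctnnbl1* (r = 0.92), *Ranbp10* (r = 0.89) and *Edem2* (r = 0.88), where the median gene had r = 0.11. Without the 2 libraries farthest from the median, these correlations were 0.76 to 0.87 for *Kit* and 0.78 to 0.96 for *Kitl*. *Kitl* itself was more like *Kit* than 32.3% of the genes. The highest of so many correlations over 12 libraries are described only, and they share library depth and complexity.

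The single gene of all lists that edgeR called in any comparison was *Ddx4*, an RNA helicase of germ cells, in MII oocytes. It was 1 of 12 oocyte markers tested there, and edgeR called 60 of 17144 genes (0.350%) in that comparison. It had 34.8, 13.4 and 23.9 TPM *in vivo* and 217, 368 and 271 TPM *in vitro* (log2 fold change 3.55, SE 0.430, edgeR adjusted p = 0.00206). In the same libraries *Kit* and *Kitl* overlapped between groups, as given above.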

How the data were processed

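RNA of 18 libraries was analysed from read counts per gene and TPM values. Per the submitters' processing notes, the authors used Trim Galore 0.4.1, TopHat2, featureCounts and the genome build mm10. The count table was deposited without normalization, and TPM values, which the authors normalized for gene length and library size, were deposited for part of the genes. Strandedness of counting and treatment of reads that map to several places were not given in the sources used here. Groups and replicate numbers came from the sample labels, and ages and culture times from the study's methods.

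Counts were tested with edgeR 4.0.16 in R 4.3.3 (glmQLFit, robust, TMM), with 1 model of the 12 LCM libraries and another of the 6 MII libraries, over genes with at least 10 reads in total. The tests were also run on simulated data, where the condition set concerned only the direction of known large changes, not the number of genes called. DESeq2 1.42.0, limma 3.58.1 on log2(TPM + 1), other scaling, filters and sample sets, a replicate block and leaving out each library were the alternatives. Intervals are 95% intervals of the fitted log2 fold changes. Levels between genes were compared in TPM. Correlations with *Kit* or *Kitl* used log2(TPM + 1), and those for the most similar genes used CPM on a log2 scale (prior count 2) over genes with at least 10 reads in at least 6 LCM libraries. Coordinates, transcripts and sequences come from GENCODE M21 on GRCm38. Counts of overlapping genes are uncertain.

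The members, lists and tests were chosen with earlier results of these data known. Named genes were both members, listed genes called in a comparison, type III receptors and ligands, *Foxo3*, *Akt1*, *Pik3r1* and a few other genes of that arm, some of which are not reported here, the highest and lowest fold change of a list, marker genes with the highest level or at 0, and the 5 genes most similar to each member. *Cbl*, *Sos2* and *Gab1* were also named because DESeq2 called them, which was decided after their values were seen.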

Additional observations from a re-analysis of the deposited data

How the results depend on the processing

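Neither *Kit* nor *Kitl* was called under any alternative in any comparison, and the smallest adjusted p was 0.549. Of 316 alternative values of their log2 fold changes, 278 kept their direction and 38 reversed it. The LCM estimates near 0 changed sign most easily. With library size alone, *Kitl* at the primordial stage became 0.0211, *Kit* averaged over stages 0.0696 and *Kit* between stages *in vitro* 0.35. *Kit* at the primary stage became -0.0101 with DESeq2's size factors and -0.0102 with DESeq2. On log2(TPM + 1), *Kitl* between stages *in vivo* became -0.18 and *Kit* between stages *in vitro* 0.36. Library size alone moved the median of all genes by up to 0.37 and DESeq2's size factors by up to 0.31 downwards.

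With a replicate block, *Kitl* became 2.22 at the primordial stage, -0.0790 between stages *in vivo* and 0.0480 in MII oocytes, and *Kit* 1.25 between stages *in vitro*. The labels give these libraries a common number and do not say whether they share animals. Deviations of same-numbered libraries correlated at -0.07 to 0.09 over 18 LCM pairs and at -0.02 to 0.02 over 3 MII pairs. Differently numbered LCM libraries correlated at -0.08 to 0.09 over 36 pairs. With so large a spread between libraries, these values cannot show whether a source was shared.

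Leaving out 1 library, the *Kit* estimate ranged from -3.59 to 0.0173 at the primordial stage, -1.81 to 1.64 at the primary stage, -1.65 to 0.56 averaged over stages, -1.29 to 3.88 for the difference between stages, -2.21 to -0.36 between stages *in vivo*, -2.22 to 3.0005 between stages *in vitro*, -1.57 to 1.06 between stages averaged over growth and -0.92 to -0.19 in MII oocytes. That of *Kitl* ranged from -2.46 to 1.04 at the primordial stage, -0.15 to 3.69 at the primary stage, -0.89 to 1.84 averaged over stages, -0.36 to 3.71 for the difference between stages, -2.69 to 1.38 between stages *in vivo*, 0.18 to 3.46 between stages *in vitro*, -0.84 to 1.89 between stages averaged over growth and -0.77 to 0.84 in MII oocytes. Genes called by edgeR ranged from 0 to 13 at the primordial stage, 0 to 4 at the primary stage, 0 to 15 averaged over stages, 0 to 20 for the difference between stages, 0 to 11 between stages *in vivo*, 0 to 2 between stages *in vitro*, 0 to 19 between stages averaged over growth and 11 to 378 in MII oocytes.

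The number of genes called depended on the tool and filter, and the cause was not tested. At the primordial stage 5 genes were called, 774 by DESeq2, 1 with the block, 9 with the groups compared alone, and 0 with the filter at 1 read, filterByExpr, limma or all 18 libraries. At the primary stage 0 were called, 1 with DESeq2's size factors, 227 by DESeq2 and 5 with the groups compared alone. Averaged over stages 0 were called, 17 with DESeq2's size factors, 1 with filterByExpr and 557 by DESeq2. For the difference between stages 16 were called, 550 by DESeq2, 1 with the filter at 1 read, and 0 with filterByExpr, limma, the block or all 18 libraries. Between stages *in vivo* 8 were called, 532 by DESeq2, 3 with the groups compared alone, and 0 with the filter at 1 read, filterByExpr, limma, the block or all 18 libraries. Between stages *in vitro* 0 were called and 413 by DESeq2, and averaged over growth 0, with 24 by DESeq2's size factors, 2 with library size alone and 625 by DESeq2. In MII oocytes 60 were called, 263 with the filter at 1 read, 351 by DESeq2, 19 by limma and 0 with all 18 libraries.

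With 3 libraries a group and a biological coefficient of variation of 2.02 in the LCM libraries, against 0.726 in the MII libraries, changes of *Kit* or *Kitl* of several log2 units could not be detected in LCM oocytes.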
